A study of Mus musculus with 12 samples.

Results

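Piezo1, Piezo2 and 7 genes of the transient receptor potential (TRP) family were followed in the mesenchyme of the developing mouse lower urinary tract. The 9 genes (Piezo1, Piezo2, Trpv2, Trpv4, Trpc1, Trpc6, Trpm4, Trpm7 and Trpa1) were taken by symbol from a list, not by a threshold on their values, out of 55228 genes in the deposited count tables. The list was chosen with earlier results of these data known. All 9 were among the 18805 genes with enough counts to be tested. All animals were untreated wildtype CD-1 mouse embryos, and no allele, transgene or drug was used in any group. The 4 groups were bladder mesenchyme and urethral mesenchyme at embryonic day (E) 14.5 and at E18.5, with 3 libraries each. Each library held the pooled tissue of the female embryos of a litter, after the epithelium had been peeled off mechanically following trypsin treatment in the cold, so no value belongs to a single embryo. The 3 replicates of a group came from independent litters.

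Piezo1 and Piezo2 are very large membrane proteins that open directly when the membrane is stretched or indented and let calcium and other cations into the cell. Piezo2 is best known from touch and bladder-filling sensation by sensory neurons and Merkel cells, and Piezo1 from endothelium, blood cells and non-neuronal tissues including the bladder wall. The TRP channels are cation channels that answer to many stimuli: TRPV4 to osmotic swelling and warmth, TRPV2 to stretch in muscle, TRPC1 and TRPC6 downstream of phospholipase C, TRPM4 to intracellular calcium, TRPM7 as a channel fused to a protein kinase, and TRPA1 to irritants in sensory neurons. For several of them direct opening by force is debated.

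Levels are given as CPM, counts per gene divided by the size of the library, scaled between libraries by the trimmed mean of M values, and levels of different genes are compared only after division by the summed exon length, as CPM per kb. The 12 libraries held 21495169 to 36349777 counts. The limit that a count of 0 allows, 3 counts, corresponded to 0.0825 to 0.140 CPM of these totals, before the scaling between libraries. Smooth muscle markers (8 genes summed) lay at 6414 to 8505 CPM in E14.5 bladder, 1677 to 3632 in E14.5 urethral, 22589 to 41907 in E18.5 bladder and 2575 to 2880 in E18.5 urethral libraries. The summed 12 epithelial markers lay at 290 to 1453, 610 to 1384, 8492 to 11257 and 2590 to 3915 CPM in the same order, so epithelial RNA was present in all groups. Mesenchyme markers (8 genes summed, among them Col1a1, Vim and Pdgfra) lay at 19350 to 25901, 8025 to 12118, 27694 to 33186 and 16094 to 18104 CPM in the same order. Of the 8, 6 were called toward bladder at E14.5 and 3 at E18.5. Pdgfra and Pdgfrb were called toward urethral mesenchyme at both stages. In each compartment, E14.5 replicate 1 was the E14.5 library closest to the E18.5 libraries on the first and on the second principal component, and E14.5 results are therefore also given without this pair of libraries. The 2 stages were deposited as separate tables, so stage and table cannot be told apart. In these bulk samples fewer cells of a type and less RNA per cell cannot be told apart.

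**Figure D1:**
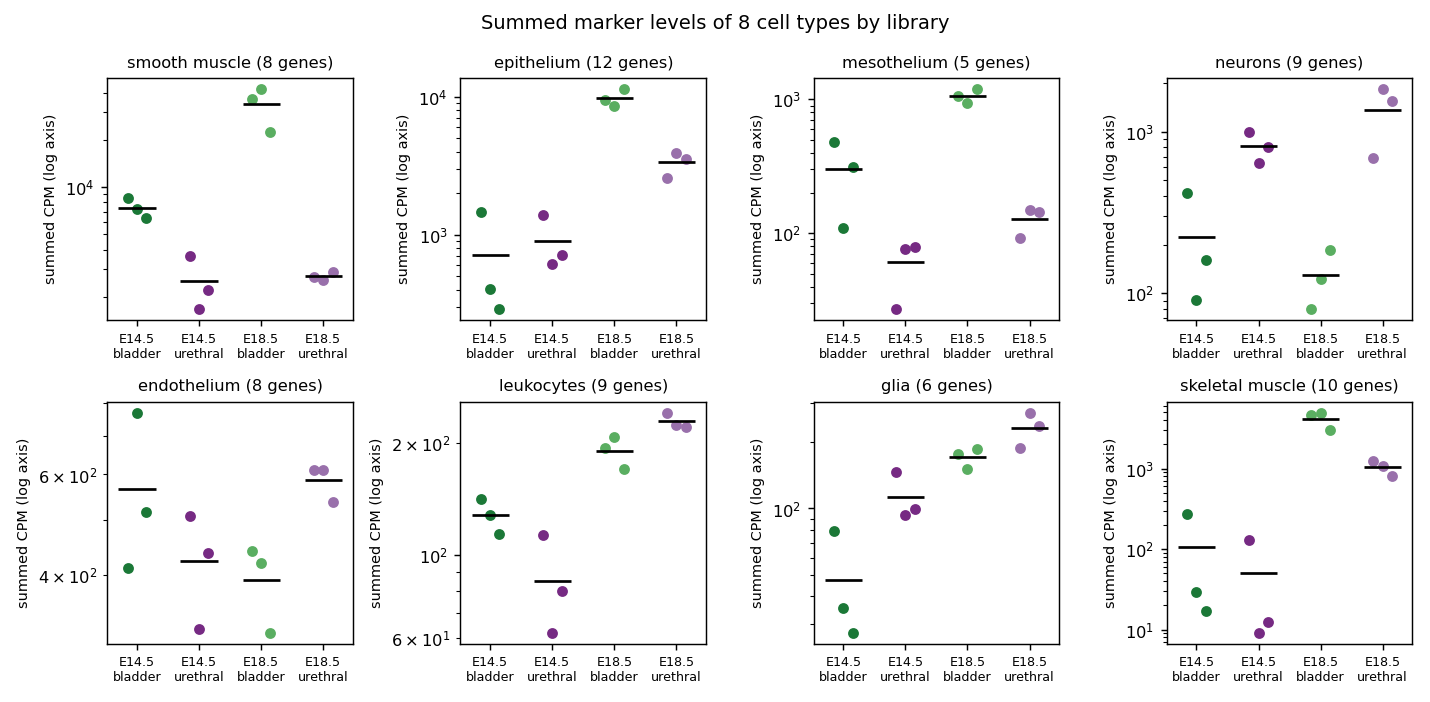
Summed CPM of marker genes (log axis) for 8 cell types, 1 point per library and a line at the group mean (n = 3). Smooth muscle markers are highest in the E18.5 bladder libraries (22589 to 41907 CPM), epithelial markers are higher at E18.5 than at E14.5 in both compartments, and neuronal markers are higher in the urethral libraries of both stages.

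The deposited gene models are on GRCm38, and all 9 have the position that GENCODE M21 gives them. Values count reads over all exons, untranslated regions included. Piezo1 lies on chromosome 8 from 122481698 to 122551329 on the minus strand with 9.935 kb of exon. Piezo2 lies on chromosome 18 from 63010213 to 63387183 (minus strand, 17.162 kb). Among the V and A channels, Trpv2 is on chromosome 11 from 62574486 to 62600515 (plus, 4.485 kb), Trpv4 on chromosome 5 from 114622152 to 114658421 (minus, 4.076 kb) and Trpa1 on chromosome 1 from 14872648 to 14918862 (minus, 4.263 kb). Trpc1 and Trpc6 share chromosome 9, from 95705082 to 95750375 (minus, 8.03 kb) and from 8544142 to 8680741 (plus, 5.066 kb). Trpm4 is on chromosome 7 from 45302632 to 45333780 (minus, 10.826 kb) and Trpm7 on chromosome 2 from 126791565 to 126876230 (minus, 11.315 kb). Exons of Ctu2 on the opposite strand cover 24.6% of the exonic bases of Piezo1. The library kit was directional but the strand setting of the counting is not given in the sources used here, so a part of the Piezo1 counts may come from Ctu2, a gene for a tRNA-modifying enzyme. Reads in the overlap may instead have been left out, so the direction of its effect on the Piezo1 counts is not known. Ctu2 itself had group means between 17.6 ± 1.19 and 21.6 ± 3.04 CPM (SD, n = 3), passed no test in any of the 4 comparisons of groups (smallest adjusted p = 0.109, edgeR).

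Per kb of exon, Piezo1 had the highest group mean of the 9 genes in 3 of the 4 groups and Trpm7 in E14.5 urethral mesenchyme. In E18.5 bladder this rests on replicate 3 (20.7 CPM per kb for Piezo1 and 12.2 for Trpv2), since Trpv2 was above Piezo1 in replicate 1 (25.6 and 24.5) and replicate 2 (20.9 and 18.8). Piezo1 group means were 16.6 CPM per kb in E14.5 bladder, 9.63 in E14.5 urethral, 21.3 in E18.5 bladder and 12 in E18.5 urethral mesenchyme. Trpm7 stood at 9.83 to 11.5 CPM per kb in all groups, and Trpv2 ranged from 3.37 in E18.5 urethral to 19.5 in E18.5 bladder mesenchyme. Trpm4 (3.30 to 7.03) and Piezo2 (1.82 to 3.52) came next, Trpv4 spanned 0.546 to 5.93, and Trpc1 and Trpc6 were at 0.332 to 0.995 CPM per kb. Trpa1 was the lowest, with no library above 61 counts. Summed over the 9 genes, the level was 44.3 ± 2.07, 34.6 ± 1.25, 67.4 ± 10.1 and 37.5 ± 1.74 CPM per kb (SD, n = 3, groups in the order above). Piezo1 gave 37.5% ± 1.02 of that sum in E14.5 bladder, 27.8% ± 1.14 in E14.5 urethral, 31.7% ± 2.38 in E18.5 bladder and 32.0% ± 0.326 in E18.5 urethral mesenchyme.

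**Figure D2:**
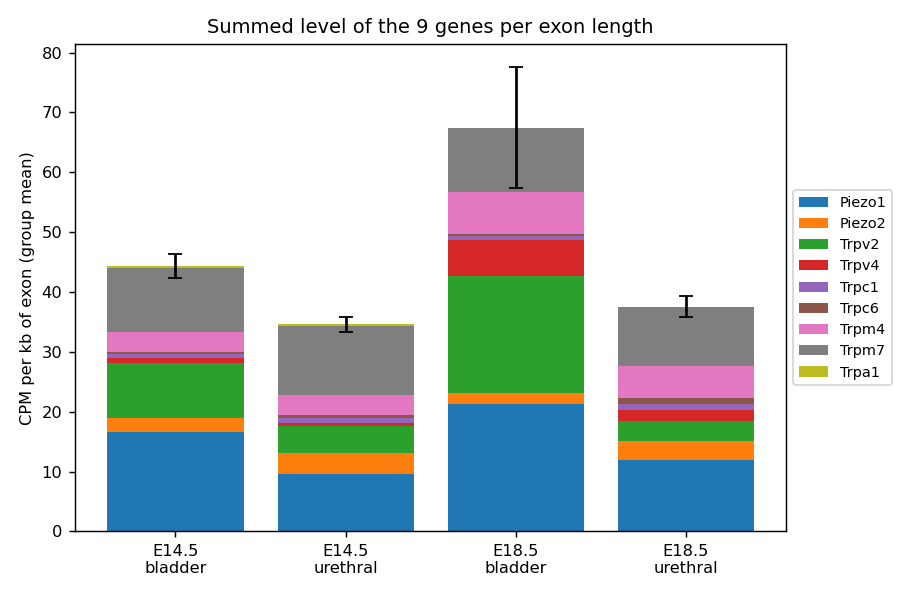
Group means (n = 3 libraries) of the 9 genes stacked, in CPM per kb of exon, with the SD of the sum as the error bar. The E18.5 bladder sum (67.4 CPM per kb) is the highest, and Piezo1, Trpm7 and Trpv2 fill most of each bar.

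Promoters are shown for the 4 genes with a RefSeq window at the start of the deposited gene model. They are also 4 of the 5 genes whose bladder-urethral difference at E18.5 was called under every alternative. No window is shown for Piezo2, the remaining gene of the 5. Each window is 300 bases of GRCm38.p6, from 250 before to 50 after the RefSeq start, printed 5′ to 3′ on the gene's strand with motif matches in capitals. Windows for 6 of the 9 genes were in the RefSeq table, 4 of them at the start of the deposited gene model. Piezo1 is at chr8:122551280-122551579 (minus), Trpv2 at chr11:62574236-62574535 (plus), Trpv4 at chr5:114658372-114658671 (minus) and Trpc6 at chr9:8543892-8544191 (plus).
Piezo1: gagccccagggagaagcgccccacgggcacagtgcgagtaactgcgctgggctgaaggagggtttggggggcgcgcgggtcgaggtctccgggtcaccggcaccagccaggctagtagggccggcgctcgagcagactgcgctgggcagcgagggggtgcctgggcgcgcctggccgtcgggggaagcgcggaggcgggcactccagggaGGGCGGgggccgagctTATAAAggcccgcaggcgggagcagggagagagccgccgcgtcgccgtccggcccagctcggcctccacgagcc
Trpv2: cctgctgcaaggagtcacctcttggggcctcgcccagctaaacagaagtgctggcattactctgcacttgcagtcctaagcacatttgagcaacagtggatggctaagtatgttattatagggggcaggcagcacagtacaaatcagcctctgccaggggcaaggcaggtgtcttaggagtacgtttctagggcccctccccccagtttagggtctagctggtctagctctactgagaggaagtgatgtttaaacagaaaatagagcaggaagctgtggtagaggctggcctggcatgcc
Trpv4: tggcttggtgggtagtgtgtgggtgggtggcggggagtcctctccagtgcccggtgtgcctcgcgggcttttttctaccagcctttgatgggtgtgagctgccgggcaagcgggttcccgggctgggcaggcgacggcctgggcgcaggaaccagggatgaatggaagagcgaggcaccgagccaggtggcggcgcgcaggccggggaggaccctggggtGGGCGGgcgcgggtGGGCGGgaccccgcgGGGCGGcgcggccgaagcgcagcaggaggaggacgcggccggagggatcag
Trpc6: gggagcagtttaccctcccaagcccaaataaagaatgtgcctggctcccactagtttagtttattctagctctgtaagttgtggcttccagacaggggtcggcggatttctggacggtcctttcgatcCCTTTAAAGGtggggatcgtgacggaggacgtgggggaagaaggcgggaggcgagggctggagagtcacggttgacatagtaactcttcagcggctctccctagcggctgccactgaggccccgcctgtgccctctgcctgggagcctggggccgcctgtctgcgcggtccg
Both strands were searched for 4 motifs. The GC box was searched as GGGCGG, which the factors of the Sp family are known to bind. The TATA box, which helps to place the start of transcription, was searched as TATAAA. The motif of the TEAD factors, the DNA-binding partners of YAP, was searched as CATTCC. The CArG box of serum response factor was the last of them, and no match overlapped another. The Piezo1 window held 1 GC box, 40 to 35 bases before the start, and 1 TATA box 24 to 19 bases before it, and 75% of its bases were G or C. The Trpv4 window was 73% G or C and held 3 GC boxes, at 30 to 25 and 16 to 11 bases before the start and across it. The Trpc6 window (60% G or C) held 1 CArG box 122 to 113 bases before the start, and the Trpv2 window (53%) held none of the 4 motifs. Among 32851 promoter windows, GC boxes were in 35.7%, TATA boxes in 13.6%, the TEAD motif in 14.7% and the CArG box in 1.63%, and the median GC content was 52.7%. A match describes the letters and shows neither a site in use nor a cause.

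Piezo1 was higher in bladder than in urethral mesenchyme at both stages, by 1.73-fold at E14.5 and 1.78-fold at E18.5. Its levels were 168, 167 and 161 CPM in the E14.5 bladder libraries (replicates 1 to 3) and 94.1, 98.5 and 94.5 CPM in the E14.5 urethral libraries. At E18.5 they were 244, 186 and 206 CPM in bladder and 122, 124 and 113 CPM in urethral libraries. No library of a group overlapped another group, and the order from high to low was E18.5 bladder, E14.5 bladder, E18.5 urethral and E14.5 urethral. The log2 difference between bladder and urethral mesenchyme was 0.79 ± 0.11 (SE) at E14.5 (adjusted p = 0.000448) and 0.83 ± 0.11 at E18.5 (adjusted p = 0.000105, edgeR's quasi-likelihood test). Without replicate 1 of both E14.5 groups the E14.5 difference was 0.75 ± 0.14 (adjusted p = 0.00337). Smooth muscle markers were higher in bladder at both stages as well (7 of 8 and 8 of 8). Endothelial markers, of cells where Piezo1 is known, summed to 411 to 768 CPM in E14.5 bladder and 322 to 508 in E14.5 urethral libraries (2 of 8 called toward bladder), and to 317 to 440 and 538 to 612 CPM at E18.5 (0 of 8 toward bladder, 3 toward urethral mesenchyme), with none at 0. The part of these cells in the Piezo1 difference was not tested.

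Piezo2 had the opposite pattern and was higher in urethral mesenchyme. The E14.5 bladder libraries held 50.1, 35.3 and 34.4 CPM and the E14.5 urethral libraries 50.8, 69.8 and 60.7 CPM. The E18.5 libraries held 27.8, 35.9 and 30.2 CPM in bladder and 53.9, 56.5 and 46.4 CPM in urethral mesenchyme. The compartments did not overlap within a stage, although E14.5 bladder replicate 1 and urethral replicate 1 lay close to each other, while every pair of neighbouring groups in the order of the means (E14.5 urethral, E18.5 urethral, E14.5 bladder, E18.5 bladder) overlapped. The log2 difference was -0.60 ± 0.17 at E14.5 (adjusted p = 0.0237) and -0.74 ± 0.17 at E18.5 (adjusted p = 0.00468). The E14.5 call ended without bladder replicate 2 (adjusted p = 0.0874) or 3 (0.0995) or urethral replicate 2 (0.0782) or 3 (0.0605) and with the compared libraries alone (0.0588), and without replicate 1 of both groups the difference was -0.92 ± 0.16 (adjusted p = 0.00165). Markers of neurons, where Piezo2 is known from sensory endings, moved the same way: 8 of 9 at E14.5 and 9 of 9 at E18.5 were higher in urethral mesenchyme, with sums of 90.2 to 419 against 640 to 995 CPM at E14.5 and of 79.8 to 186 against 687 to 1826 CPM at E18.5. Of 5 sensory neuron markers, 2 of the 3 tested were higher in urethral mesenchyme at each stage, with sums of 11.5 to 16.6, 25.4 to 31.9, 15.9 to 18.7 and 32.0 to 44.0 CPM (E14.5 bladder, E14.5 urethral, E18.5 bladder, E18.5 urethral), and Pou4f1 was at 0 in all E14.5 bladder libraries. Of 4 Merkel cell markers, 2 of 3 tested (Sox2 and Isl1) were higher in urethral mesenchyme at each stage, while Krt20 was called toward bladder at E18.5. The Merkel cell sums were 18.6 to 61.7, 202 to 278, 59.6 to 151 and 148 to 169 CPM in the same order, and Atoh1 was at 0 in all E14.5 bladder libraries. The part of these cells in the Piezo2 difference was not tested.

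The ratio of Piezo1 to Piezo2 per kb set the compartments apart. It was 5.80, 8.16 and 8.06 in E14.5 bladder libraries and 3.20, 2.44 and 2.69 in E14.5 urethral libraries. At E18.5 it was 15.2, 8.97 and 11.8 in bladder and 3.90, 3.79 and 4.19 in urethral libraries. Every bladder library exceeded every urethral library, and Piezo1 was above Piezo2 in all 12. Both follow from the levels of Piezo1 and Piezo2 given above and are not a separate result. These ratios carry the Ctu2 overlap of Piezo1 named above.

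**Figure D3:**
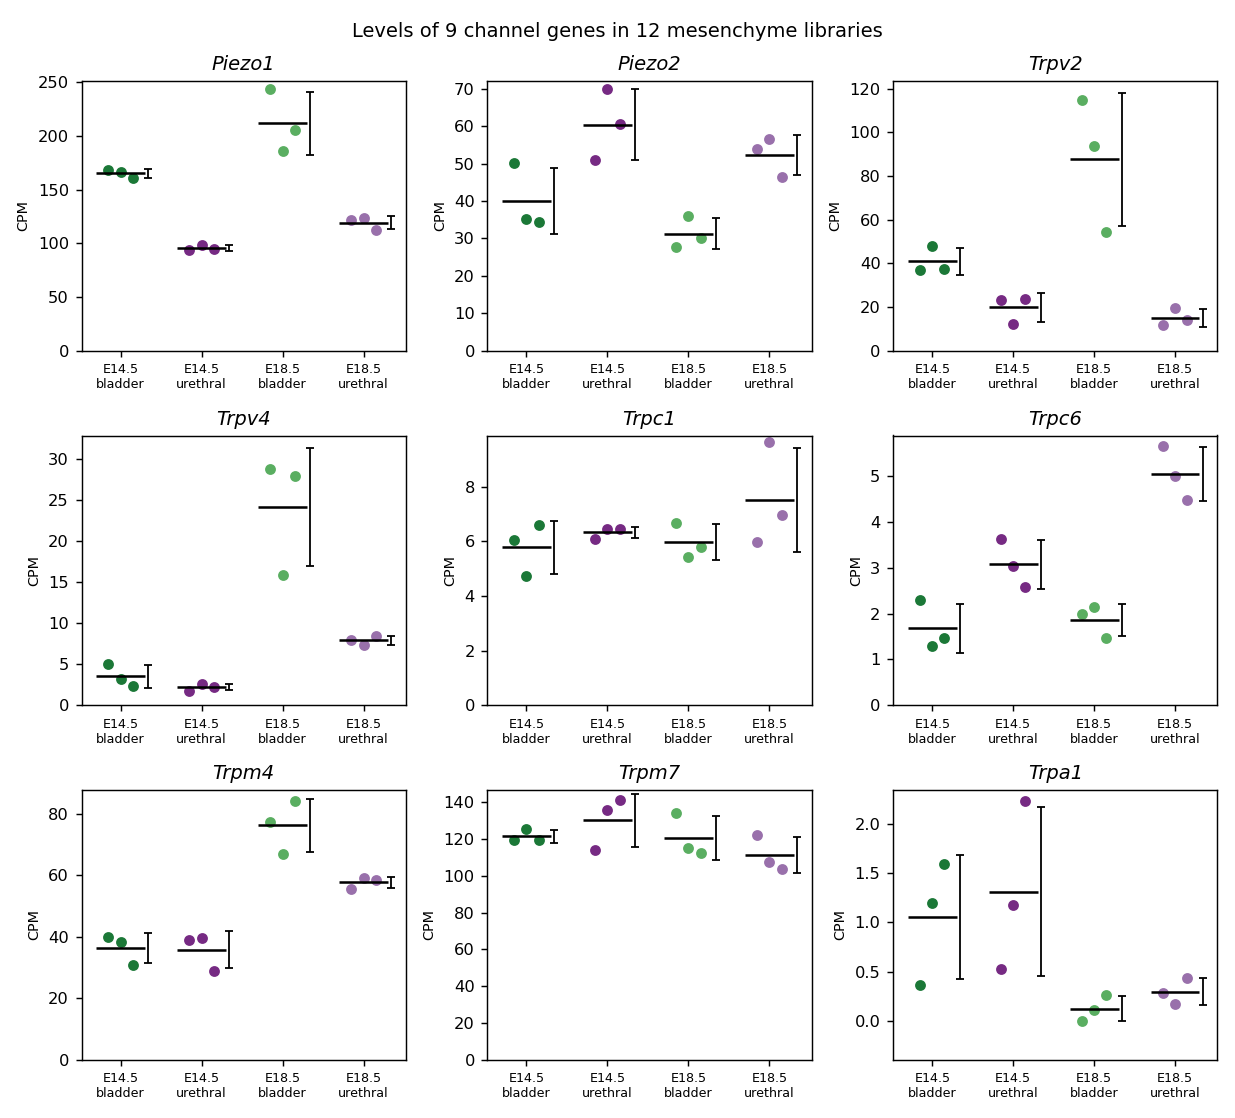
CPM of each of the 9 genes in the 12 libraries, 1 point per library, with the group mean (line) and SD (bar, n = 3). Piezo1, Trpv2 and Trpv4 are highest in E18.5 bladder mesenchyme, Piezo2 and Trpc6 are higher in urethral than bladder mesenchyme at both stages, and Trpc1 and Trpm7 overlap across groups.

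Trpv2, a calcium-permeable channel that responds to stretch in muscle cells, showed the widest gap between compartments among the 9 genes. E14.5 libraries held 37.2, 47.9 and 37.6 CPM in bladder and 23.4, 12.4 and 23.8 CPM in urethral mesenchyme. E18.5 libraries held 115, 93.7 and 54.6 CPM in bladder and 11.7, 19.6 and 14 CPM in urethral mesenchyme. Bladder and urethral libraries did not overlap at either stage, and bladder replicate 3 was the lowest of the E18.5 bladder libraries. The log2 difference was 1.05 ± 0.31 at E14.5 (adjusted p = 0.0278) and 2.54 ± 0.32 at E18.5 (adjusted p = 0.000104). At E14.5 the call ended without bladder replicate 2 (adjusted p = 0.0895) or 3 (0.0568), without urethral replicate 2 (0.0810) and with no filter on low counts (0.0700), and without replicate 1 of both groups it was 1.24 ± 0.37 (adjusted p = 0.0292). Smooth muscle markers moved the same way, with 7 of 8 higher in bladder at E14.5 and 8 of 8 at E18.5. Mesothelial markers were higher in bladder too, 3 of 5 at E14.5 and 4 of 5 at E18.5, with sums of 110 to 479, 27.2 to 79.2, 934 to 1188 and 92.2 to 149 CPM in E14.5 bladder, E14.5 urethral, E18.5 bladder and E18.5 urethral libraries. Leukocyte markers, of cells where Trpv2 is also known, summed to 114 to 142 CPM in E14.5 bladder and 61.9 to 113 in E14.5 urethral libraries (4 of 9 called toward bladder). At E18.5 they summed to 170 to 208 CPM in bladder and 222 to 241 CPM in urethral libraries (0 of 9 called toward bladder, 1 toward urethral mesenchyme and 8 not called). The part of smooth muscle, mesothelium and leukocytes in the Trpv2 difference was not tested.

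Trpv4, the osmosensitive channel known from urothelium, passed the test between compartments at E18.5 but not at E14.5. The E14.5 libraries held 5.03, 3.19 and 2.34 CPM in bladder and 1.78, 2.62 and 2.28 CPM in urethral mesenchyme, and these overlapped. The E18.5 libraries held 28.7, 15.8 and 27.9 CPM in bladder and 7.92, 7.33 and 8.47 CPM in urethral mesenchyme, without overlap. The log2 difference was 1.61 ± 0.29 at E18.5 (adjusted p = 0.00106), and at E14.5 it was 0.65 ± 0.31 with a 95% interval of -0.02 to 1.32 (adjusted p = 0.140). Without replicate 1 of both E14.5 groups the E14.5 difference was 0.16 ± 0.32 (adjusted p = 0.750, edgeR). Of the marker lists summed above, 5 of 12 epithelial, 8 of 8 smooth muscle and 4 of 5 mesothelial markers were also called toward bladder at E18.5, with none at 0 in a whole group. The part of these cell types in the Trpv4 difference was not tested.

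Trpc6, a channel opened by diacylglycerol, was higher in urethral mesenchyme, at a low level. Its E14.5 levels were 2.29, 1.28 and 1.47 CPM in bladder and 3.63, 3.04 and 2.57 CPM in urethral libraries. At E18.5 they were 1.98, 2.15 and 1.47 CPM in bladder and 5.66, 5.00 and 4.47 CPM in urethral libraries. Urethral libraries were above bladder libraries at both stages, and E18.5 urethral libraries were above all others. The log2 difference was -1.44 ± 0.29 at E18.5 (adjusted p = 0.00203). At E14.5 it was -0.87 ± 0.29 (adjusted p = 0.0458), a call that ended in 13 of 19 alternatives: with no filter on low counts, with the compared libraries alone, and without any one of 11 libraries, E14.5 bladder replicate 1 being the exception (adjusted p from 0.0503 to 0.155). Without replicate 1 of both E14.5 groups the E14.5 difference of Trpc6 was -1.04 ± 0.33 (adjusted p = 0.0364, edgeR). Neuronal markers were higher in urethral mesenchyme as given above for Piezo2. Glial markers were called toward urethral mesenchyme for 3 of 6 at E14.5 and 4 of 6 at E18.5, with sums of 27.4 to 79.0, 93.5 to 146, 151 to 185 and 187 to 270 CPM in E14.5 bladder, E14.5 urethral, E18.5 bladder and E18.5 urethral libraries. Of 10 skeletal muscle markers, 2 were called toward urethral mesenchyme at E14.5, and 6 toward urethral mesenchyme and 3 toward bladder at E18.5. Their sums, in the same order, were 16.8 to 272, 9.13 to 131, 3033 to 4877 and 797 to 1241 CPM, and Pax7 was at 0 in all E14.5 bladder libraries. The part of these cells in the Trpc6 difference was not tested. Trpc1, which forms channels together with other TRPC proteins, had 6.03, 4.72 and 6.62 CPM in E14.5 bladder and 6.09, 6.44 and 6.46 CPM in E14.5 urethral libraries. At E18.5 it had 6.69, 5.42 and 5.79 CPM in bladder and 5.96, 9.63 and 6.95 CPM in urethral libraries. All groups overlapped, and the log2 difference was -0.13 (95% interval -0.62 to 0.37, adjusted p = 0.713) at E14.5 and -0.33 (-0.82 to 0.16, adjusted p = 0.301) at E18.5. Per kb, Trpc1 exceeded Trpc6 by 2.27 ± 0.588 times in E14.5 bladder and 2.07 ± 0.448 times in E18.5 bladder, while the ratio was 1.33 ± 0.264 in E14.5 urethral and 0.954 ± 0.276 in E18.5 urethral mesenchyme.

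Trpm4, a channel that calcium opens but that passes only monovalent cations, was at 39.9, 38.3 and 30.8 CPM in E14.5 bladder and 38.9, 39.6 and 28.8 CPM in E14.5 urethral libraries. At E18.5 it was at 77.4, 66.9 and 84.2 CPM in bladder and 55.6, 58.9 and 58.4 CPM in urethral libraries. The compartments overlapped at E14.5 (log2 difference 0.02 ± 0.15, adjusted p = 0.925) and not at E18.5. The E18.5 difference of 0.40 ± 0.14 was at the edge of the test (adjusted p = 0.0463). That call ended in 10 of 19 alternatives, among them DESeq2 (adjusted p = 0.0572), median-ratio size factors (0.0614), no filter (0.0690) and a stricter filter (0.0692), and without E14.5 bladder replicate 2 (0.0559), E18.5 bladder replicate 1 (0.0998) or 3 (0.159), or E18.5 urethral replicate 1 (0.133), 2 (0.0945) or 3 (0.101).

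Trpm7, the channel-kinase that carries magnesium, calcium and zinc, was the flattest of the 9 genes. It was at 119, 125 and 119 CPM in E14.5 bladder and 114, 136 and 141 CPM in E14.5 urethral libraries. At E18.5 it was at 134, 115 and 112 CPM in bladder and 122, 108 and 104 CPM in urethral libraries. All groups overlapped, the means on the log2 CPM scale spanned 0.23, and the compartment difference was -0.10 (95% interval -0.35 to 0.15) at E14.5 and 0.12 (-0.13 to 0.36) at E18.5. Trpa1, the irritant sensor, was near the limit of counting: 8, 29 and 37 counts in E14.5 bladder, 14, 45 and 61 in E14.5 urethral, 0, 2 and 8 in E18.5 bladder and 11, 4 and 15 in E18.5 urethral libraries. The E18.5 bladder library with 0 counts allows up to 0.0933 CPM of its total before scaling, so this limit is not on the scale of the CPM levels given for Trpa1. Trpa1 libraries of the compartments overlapped at both stages, and the intervals of its difference were wide (-1.84 to 1.21 at E14.5 and -3.21 to 0.79 at E18.5 on the log2 scale).

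Read across the 9 genes, 4 were called at E14.5, 2 toward bladder (Piezo1 and Trpv2) and 2 toward urethral mesenchyme (Piezo2 and Trpc6), where 24.9% of all 18805 tested genes were called, 2335 on the bladder side and 2342 on the urethral side. At E18.5, 6 were called, 4 toward bladder (Piezo1, Trpv2, Trpv4 and Trpm4) and 2 toward urethral mesenchyme (Piezo2 and Trpc6), beside 34.8% of all tested genes (3482 toward bladder and 3053 toward urethral mesenchyme). The libraries of the compartments did not overlap for 4 of the 9 genes at E14.5 (37.7% of all tested genes) and for 6 at E18.5 (52.1%). The median log2 difference of the 9 was -0.10 at E14.5 and 0.12 at E18.5, beside medians of -0.0035 and 0.05 over all tested genes. The direction of the called genes was therefore mixed at both stages.

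The change of the compartment difference from E14.5 to E18.5 was called for 0 of the 9 genes by edgeR's quasi-likelihood test, where 8.67% of all tested genes were called. At an unadjusted p under 0.05 there were 2, Trpv2 and Trpv4, and DESeq2 called 1, Trpv2 (adjusted p = 0.0115). For Trpv2 the difference was larger at E18.5 by 1.49 ± 0.43 on the log2 scale (95% interval 0.56 to 2.43, adjusted p = 0.0522). It passed the threshold without E14.5 urethral replicate 2 (1.75, adjusted p = 0.0216), without E18.5 bladder replicate 3 (1.75, 0.0216) or without E18.5 urethral replicate 2 (1.72, 0.0487). For Trpv4 the change was 0.96 ± 0.42 (95% interval 0.04 to 1.88, adjusted p = 0.186), and it was 1.32 (adjusted p = 0.0471) without E14.5 bladder replicate 1 and 1.45 (adjusted p = 0.0333) without replicate 1 of both E14.5 groups. For Piezo1 the change was 0.04 with a 95% interval of -0.29 to 0.37, and for Piezo2 -0.14 with an interval of -0.67 to 0.38.

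**Figure D4:**
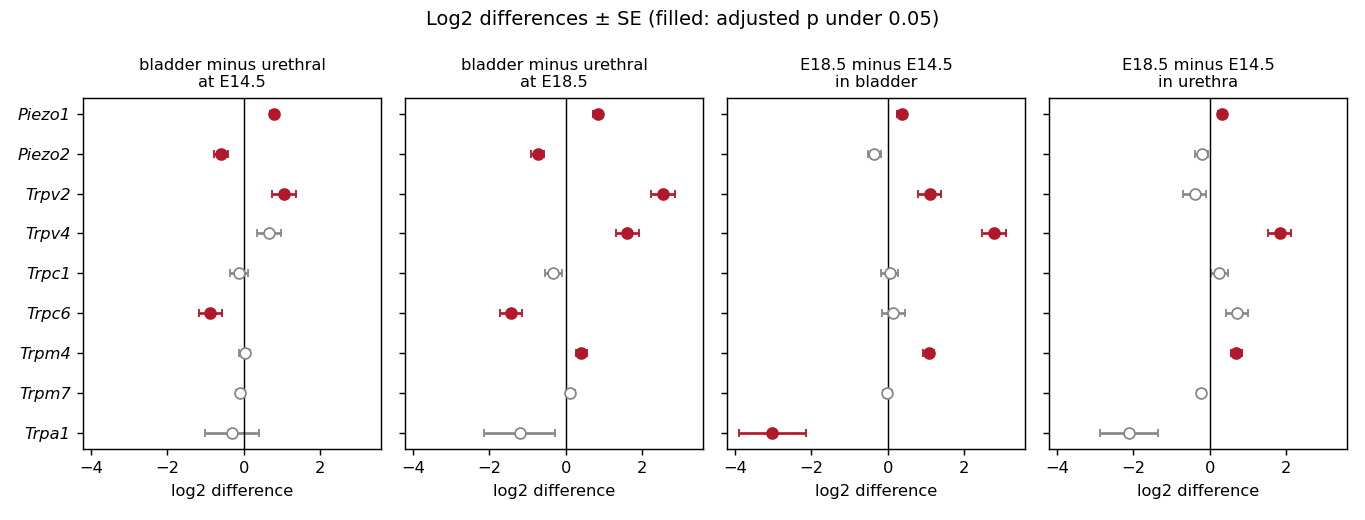
Log2 difference ± SE of each gene in the 4 comparisons between groups (3 libraries against 3), filled where the adjusted p was under 0.05. Piezo1 and Trpv2 lie right of 0 and Piezo2 and Trpc6 left of 0 in both compartment panels, and Trpv4 and Trpm4 lie right of 0 in both stage panels, at 2.78 and 1.07 in bladder and 1.82 and 0.69 in urethral mesenchyme.

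With age, Trpv4 and Trpm4 rose in both compartments. Trpv4 in bladder mesenchyme went from 3.52 ± 1.38 to 24.2 ± 7.23 CPM (SD, n = 3), a log2 difference of 2.78 ± 0.31 (adjusted p = 3.4e-05). In urethral mesenchyme it went from 2.22 ± 0.422 to 7.91 ± 0.570 CPM, a difference of 1.82 ± 0.31 (adjusted p = 0.00175). Epithelial markers rose at the same time, 12 of 12 in bladder and 7 of 12 in urethral mesenchyme. So did smooth muscle (8 of 8 and 0 of 8), skeletal muscle (4 of 10 and 10 of 10), leukocyte (2 of 9 and 9 of 9) and mesothelial markers (2 of 5 and 3 of 5). In urethral mesenchyme 1 mesothelial marker fell. The part of these cells in the rise of Trpv4 and Trpm4 was not tested. Trpm4 rose by 1.07 ± 0.15 in bladder (36.3 ± 4.83 to 76.2 ± 8.72 CPM, adjusted p = 0.000118) and by 0.69 ± 0.14 in urethral mesenchyme (35.8 ± 6.01 to 57.7 ± 1.76 CPM, adjusted p = 0.00558). No E18.5 library of these genes overlapped an E14.5 library of the same compartment, and the Trpv4 and Trpm4 stage calls held in all 18 alternatives.

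Piezo1 rose in both compartments by a smaller step. The log2 difference was 0.36 ± 0.11 in bladder (adjusted p = 0.0158) and 0.32 ± 0.11 in urethral mesenchyme (adjusted p = 0.0476). The bladder call ended without E14.5 bladder replicate 3 (adjusted p = 0.0578), without E18.5 bladder replicate 1 (0.0667) and with the compared libraries alone (0.0501). The urethral call ended in 12 of 18 alternatives (adjusted p from 0.0588 to 0.148): with no filter, without both E14.5 replicates 1, and on leaving out any E14.5 library, any E18.5 urethral library or E18.5 bladder replicate 3. Trpv2 rose in bladder by 1.10 ± 0.30 (40.9 ± 6.06 to 87.6 ± 30.5 CPM, adjusted p = 0.0112), and without E18.5 bladder replicate 1 the difference was 0.86 (adjusted p = 0.0520). In urethral mesenchyme Trpv2 did not pass the test (-0.40 ± 0.31, adjusted p = 0.377). All 8 smooth muscle markers rose in bladder and 0 in urethral mesenchyme. Of the other lists, 12 of 12 epithelial, 2 of 5 mesothelial, 4 of 10 skeletal muscle and 2 of 9 leukocyte markers rose in bladder. In urethral mesenchyme 7 of 12, 3 of 5, 10 of 10 and 9 of 9 rose in the same order, and 1 mesothelial marker fell. The part of these cells in the Trpv2 rise was not tested.

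Trpa1 fell in bladder mesenchyme by 3.02 ± 0.87 on the log2 scale (1.06 ± 0.630 to 0.121 ± 0.129 CPM, adjusted p = 0.0135). Without E14.5 bladder replicate 3 the change was -2.60 (adjusted p = 0.0551), and without E18.5 bladder replicate 3, it was -4.40, a fitted value that rests on 2 counts in that group. In urethral mesenchyme the change was -2.12 ± 0.76 (1.32 ± 0.863 to 0.294 ± 0.138 CPM, adjusted p = 0.0596), and the libraries of the stages did not overlap. Piezo2 had stage differences of -0.35 (95% interval -0.72 to 0.02) in bladder and -0.21 (-0.58 to 0.16) in urethral mesenchyme, and Trpc6 had 0.15 (-0.50 to 0.79) and 0.71 (0.10 to 1.32, adjusted p = 0.0839). Trpm7 had -0.01 (-0.26 to 0.24) and -0.23 (-0.48 to 0.02), and Trpc1 had 0.04 (-0.45 to 0.54) and 0.24 (-0.25 to 0.74). None of these 4 genes passed edgeR's test between stages. Trpc6 in urethral mesenchyme passed with DESeq2 (0.75, adjusted p = 0.0321) and without replicate 1 of both E14.5 groups (0.84, adjusted p = 0.0482).

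Of the 9 genes, 4 rose, 1 fell and 4 were not called between stages in bladder, where 45.7% of tested genes were called (4461 higher and 4136 lower at E18.5). In urethral mesenchyme 3 rose, 0 fell and 6 were not called, against 24.4% of tested genes (2558 higher and 2028 lower). At an unadjusted p under 0.05, 4 genes were higher (Trpc6 beside the 3 called) and 1 (Trpa1) was lower at E18.5 in urethral mesenchyme, and DESeq2 called the same 4 and 1. The stages did not overlap for 5 genes in bladder (55.8% of all tested genes) and 5 in urethral mesenchyme (44%). The median log2 difference was 0.15 in bladder and 0.24 in urethral mesenchyme, with -0.02 and -0.06 over all tested genes. Within the TRPM pair, the ratio of Trpm4 to Trpm7 per kb went from 0.313 ± 0.0400 to 0.665 ± 0.103 in bladder and from 0.292 ± 0.0724 to 0.546 ± 0.0608 in urethral mesenchyme, without overlap between stages. The ratio of Trpv2 to Trpv4 went from 11.7 ± 4.31 to 3.6 ± 1.80 in bladder and from 8.58 ± 3.91 to 1.76 ± 0.586 in urethral mesenchyme.

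Among 21 other TRP family genes 13 were tested, with none called toward bladder. Toward urethral mesenchyme 3 were called at E14.5 and 7 at E18.5. Trpm3, a heat and steroid sensor of sensory neurons, was at 1.19 ± 0.626 CPM in E14.5 bladder and 5.03 ± 1.17 in E14.5 urethral, and at 0.591 ± 0.0521 and 7.89 ± 3.28 CPM at E18.5 (log2 difference -2.08 ± 0.41 and -3.72 ± 0.44, adjusted p = 0.00359 and 5.4e-05). Pkd2l1, a polycystin-like channel of cerebrospinal fluid-contacting neurons, had 218, 64 and 135 counts in the E18.5 urethral libraries and no more than 8 counts in any other library (E18.5 log2 difference -4.93 ± 0.88, adjusted p = 0.000879, and -7.54 without E18.5 bladder replicate 2, a fitted value that rests on 1 count in that group). Mcoln3, a lysosomal channel, fell with age in bladder by 3.39 ± 0.46 (adjusted p = 0.000114) and in urethral mesenchyme by 3.15 ± 0.42 (adjusted p = 0.000514). Between stages 3 of the 13 rose and 4 fell in bladder, and 1 rose and 2 fell in urethral mesenchyme. The median log2 difference between compartments was -0.54 at E14.5 and -0.98 at E18.5 over the 13 genes. The neuronal and Merkel cell markers that were higher in urethral mesenchyme, given above, moved with these genes too. Krt20 of the Merkel cell list went toward bladder at E18.5, and the part of these cells was not tested.

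**Figure D5:**
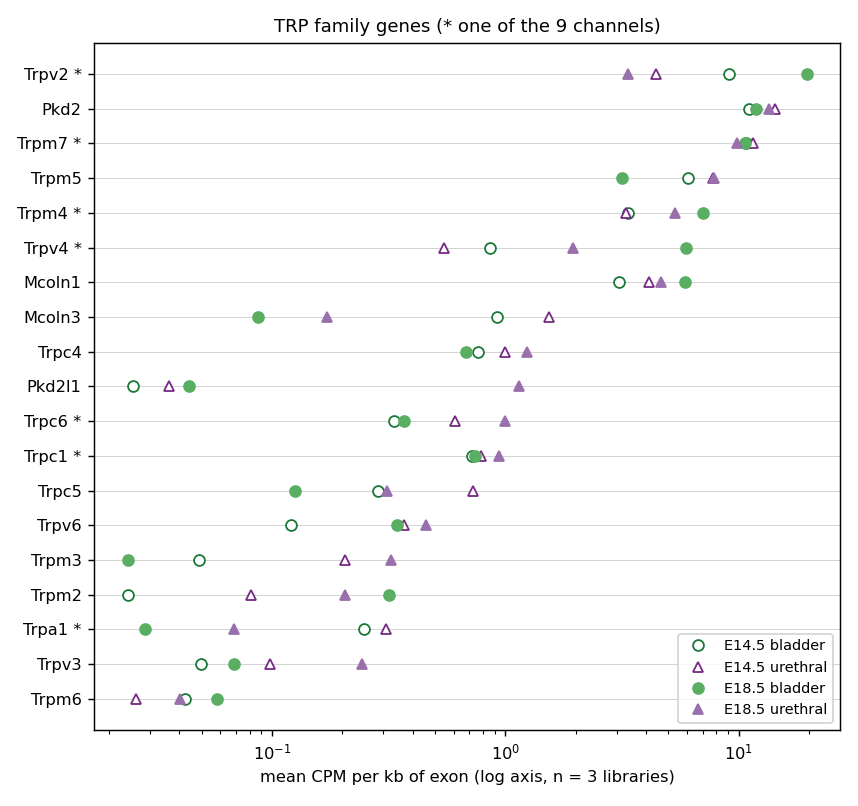
Mean CPM per kb of exon (log axis, n = 3 libraries) of 19 of the 20 tested TRP family genes in the 4 groups, ordered by their highest mean, with the 7 TRP genes described here starred. Trpv2, Pkd2 and Trpm7 are at the top, and Trpm3 and Pkd2l1 are higher in urethral than bladder mesenchyme at E18.5.

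Other mechanically or swelling-gated channels were called in both directions. Of 18 tested, 3 were called toward bladder and 7 toward urethral mesenchyme at each stage, 9 rose and 3 fell with age in bladder, and 6 rose and 1 fell in urethral mesenchyme. Lrrc8e, a subunit of the swelling-activated anion channel, was at 7.03 ± 2.35 CPM in E14.5 bladder and 73.7 ± 13.4 CPM in E18.5 bladder (log2 difference 3.39 ± 0.34, adjusted p = 2e-05), and at E18.5 it was higher in bladder than in urethral mesenchyme (10.3 ± 3.58 CPM) by 2.84 ± 0.33 (adjusted p = 5.3e-05). Asic1, an acid-sensing channel, was higher in bladder at E14.5 by 2.42 ± 0.31 (13.2 ± 2.91 against 2.45 ± 0.734 CPM, adjusted p = 0.000331). Kcnk2, the stretch-opened potassium channel TREK-1, fell with age in bladder by 1.88 ± 0.22 (29.7 ± 4.07 to 8.05 ± 0.336 CPM, adjusted p = 4.5e-05). Exons of A430027H14Rik on the opposite strand cover 12.2% of the Kcnk2 exonic bases. Epithelial markers rose with age beside this list, 12 of 12 in bladder and 7 of 12 in urethral mesenchyme. Markers of the other cell types given above for Trpv2 rose as well, in 1 or both compartments. The part of all these cells was not tested.

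Piezo partners and regulators of Piezo or other channels were counted together in 1 list. It included Stom, a membrane scaffold of the stomatin family, which was higher in bladder by 1.57 ± 0.20 at E14.5 and 1.32 ± 0.20 at E18.5 (140 ± 35.4 against 47.2 ± 7.88 CPM, and 136 ± 26.6 against 54.4 ± 4.80 CPM, adjusted p = 0.000293 and 0.000282). Of the 11 genes of this mixed list that were tested, 1 was called toward bladder and 3 toward urethral mesenchyme at E14.5, and 2 and 4 at E18.5. In bladder 3 rose and 1 fell with age, and in urethral mesenchyme 4 rose and 2 fell. Mdfi, of the family whose members bind Piezo subunits, had a compartment difference that changed by -1.02 ± 0.18 (adjusted p = 0.00586), with 85.1 ± 13.6, 82.3 ± 7.80, 27.5 ± 2.45 and 54.0 ± 2.87 CPM in E14.5 bladder, E14.5 urethral, E18.5 bladder and E18.5 urethral mesenchyme. Tmem150c, a modulator of mechanically gated currents, rose in urethral mesenchyme by 1.89 ± 0.28 (3.20 ± 0.777 to 11.9 ± 2.19 CPM, adjusted p = 0.000952).

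Genes of calcium entry and of pathways linked to calcium or stretch were counted in 6 further lists. Of 5 store-operated calcium entry genes, 3 were called toward bladder and 1 toward urethral mesenchyme at E18.5 (1 and 1 at E14.5). Stim1, the calcium sensor of the endoplasmic reticulum, was at 105 ± 21 CPM in E18.5 bladder and 49.8 ± 1.32 in E18.5 urethral mesenchyme (log2 difference 1.08 ± 0.14, adjusted p = 0.000109). Of 10 voltage-gated calcium channel subunits, 2 were called toward bladder and 6 toward urethral mesenchyme at E18.5 (0 and 4 at E14.5), and of 10 calcineurin and NFAT genes 0 and 3 (2 and 2 at E14.5). Nfatc2, a calcium-activated transcription factor, had a compartment difference that changed by -2.49 ± 0.42 (adjusted p = 0.0047), with 6.58 ± 1.20, 2.36 ± 0.557, 6.87 ± 1.13 and 13.9 ± 5.32 CPM in the 4 groups.

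Of the 4 genes of the actin-regulated MRTF and SRF factors, 2 were called toward bladder at both stages and 0 toward urethral mesenchyme. Myocd, the smooth muscle coactivator of SRF, was at 101 ± 40.3 CPM in E18.5 bladder and 17.3 ± 2.64 in E18.5 urethral mesenchyme (2.54 ± 0.34, adjusted p = 0.000175). Of 12 genes that respond to YAP and TEAD, 4 were called toward bladder at E18.5 and 0 toward urethral mesenchyme (1 and 1 at E14.5), and 6 rose in bladder and 2 in urethral mesenchyme with age, with none falling. Crim1 rose in bladder by 1.5 ± 0.24 (47.7 ± 7.55 to 135 ± 35.2 CPM, adjusted p = 0.000335). Of 15 core genes of the YAP pathway, 3 were called toward bladder and 2 toward urethral mesenchyme at E18.5, and 0 and 1 at E14.5. The share of called genes in each list is to be read beside the shares of all tested genes given above.

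The genes whose levels followed most closely those of the 3 most variable channels were found by the root mean square difference of log2(CPM + 0.1) over the 12 libraries, after each gene's mean was subtracted, among 12144 tested genes with at least 5 CPM. The range of group means on the log2 CPM scale was 3.35 for Trpv4, 2.66 for Trpa1 and 2.50 for Trpv2. For Trpv4 the nearest were Myof (0.324), a membrane-repair protein of the ferlin family, St6galnac2 (0.353), a sialyltransferase, and Sema4a (0.356), a semaphorin, where the median gene was at 1.38. For Trpv2 they were Hacd1 (0.261), an enzyme of very long chain fatty acid synthesis, Itga5 (0.283), the fibronectin receptor subunit, and Wscd2 (0.289), with a median of 1.09. For Trpa1 they were Pcdh11x (0.604), Nmral1 (0.624) and Gabra4 (0.640), with a median of 1.32. Trpa1 was followed less closely than the others, at counts of 0 to 61. These are descriptions over 12 libraries that share their groups.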

How the data were processed

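Gene expression was measured by RNA-seq in 12 libraries. Per the labels' protocols, poly(A) RNA was made into directional libraries and sequenced as read pairs. Per the submitters' processing notes, bcl2fastq, HISAT2 2.2.1, SAMtools 1.9 and GRCm38 were used. How reads were counted, with which strand setting and which annotation, is not given in the sources used here. The authors deposited unnormalized counts of each gene, with 1 table for each stage. The exon coordinates and the summed exon length stand beside them, per the file headers, and the length equalled the merged exons in 1114 of 1114 genes checked. The value 2 was 2.06 to 2.51 times as frequent as 1 in each library. The limit that a count of 0 allows (3 counts, 0.0825 to 0.140 CPM of the unscaled totals) therefore covers counting error only and may be too low. The 37 mitochondrial genes held 0 counts.

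From these counts, edgeR 4.0.16 in R 4.3.3 kept 18805 genes (filterByExpr, minimum count 10), scaled them by TMM and fitted 1 robust quasi-likelihood model of 4 group means to all 12 libraries (8 residual degrees of freedom). P-values were adjusted by Benjamini-Hochberg over all tested genes within each of 5 comparisons, with a threshold of 0.05. The SE of a log2 difference was derived from the test, as its absolute value divided by the square root of edgeR's F statistic. The 95% intervals use this SE and edgeR's moderated degrees of freedom. The fit was tested on simulated data. Alternatives were DESeq2 1.42.0, median-ratio size factors, no filter, a stricter filter (a mean of 1 CPM and 10 counts), the compared libraries alone, each library left out, replicate 1 of both E14.5 groups left out, and the replicate number as a block.

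Replicate numbers of the compartments are taken to pair the E18.5 libraries, because deviations of same-numbered libraries from their group means correlated (0.197, 0.193 and 0.286). The 9 genes, the 9 gene lists and the 11 marker lists were chosen with earlier results of these data known. All 9 genes are named. Of each list and comparison, the rule took up to 3 called genes with the largest difference, if the higher group had 2 CPM or more, and for length the text names part of these, chosen after their values were seen. The genes most like a channel were taken for the 3 channels with the widest range of group means, 3 each, without predicted genes. The pseudocount of that measure was chosen after seeing the data, and the alternatives for list genes were added then too. Promoter windows come from RefSeq. The result of 1 list gene is not reported here.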

Additional observations from a re-analysis of the deposited data

How the results depend on the processing

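Of the 18 called differences of the 9 genes, 10 kept their call in every alternative run: Piezo1 between compartments at both stages, Piezo2, Trpv2, Trpv4 and Trpc6 between compartments at E18.5, and Trpv4 and Trpm4 between stages in both compartments. Group levels moved by less than 1 SD in 54 of 54 cases, with median-ratio size factors or without replicate 1 of the E14.5 groups. The cases without replicate 1 could not come out otherwise, since leaving out 1 of 3 libraries cannot move a group mean by 1 SD of that group. The number of genes higher in bladder at E14.5 was 1 with no filter and 1 to 2 on leaving out single libraries, and the number higher in urethral mesenchyme was 1 with no filter, 0 with the compared libraries alone and 0 to 2 on leaving out single libraries. For the larger difference at E18.5 it was 1 with DESeq2, 1 without replicate 1 of both E14.5 groups and 0 to 1 on leaving out single libraries. The number that rose in bladder was 2 to 4 on leaving out single libraries (2 without E18.5 bladder replicate 1). The number that fell in bladder was 0 with the stricter filter and 0 with the compared libraries alone, since Trpa1 was then not tested, and 0 to 1 on leaving out single libraries. The number that fell in urethral mesenchyme was 1 with DESeq2, 1 without replicate 1 of both E14.5 groups, 1 with the compared libraries alone and 0 to 1 on leaving out single libraries, in each case Trpa1. Otherwise the cause was not tested.

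With the replicate number as a block, the numbers higher in bladder and in urethral mesenchyme were 2 and 2 at E14.5 and 4 and 2 at E18.5, and 0 changes of the difference were called, so the block changed no call of the 9 genes. At E14.5 the same-numbered libraries did not all deviate together (0.191, -0.0285 and 0.206), and bladder replicate 2 correlated more with urethral replicate 3 (0.133) than with its own number. The stages came from different litters and were fitted without it.

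Sign changes occurred in 8 differences that passed no test. For Trpm4 at E14.5 the log2 difference was -0.0010 with the stricter filter, -0.00051 without replicate 1 of both groups, -0.013 with the compared libraries alone and -0.11 to 0.13 on leaving out single libraries. For Piezo2 the change of the difference was 0.17 without replicate 1 of both E14.5 groups and -0.26 to 0.065 on leaving out single libraries. For Trpm7 in bladder with age it was 0.0048 with DESeq2, 0.0048 with median-ratio size factors, 0.0028 with the compared libraries alone and -0.097 to 0.040 on leaving out single libraries. On leaving out single libraries, Trpa1 at E14.5 ran from -0.73 to 0.29, the change of the difference from -0.072 to 0.13 for Piezo1 and from -0.34 to 0.015 for Trpc1, and the bladder stage difference from -0.083 to 0.15 for Trpc1 and from -0.015 to 0.44 for Trpc6. Depth limits Trpa1, at 0 to 61 counts per library.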

Other observations

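Trpm5, a calcium-activated channel best known from taste and other chemosensory epithelial cells, was among the more abundant TRP genes of the mesenchyme, and is named here after its values were seen. Its libraries held 51.8, 30.6 and 34.3 CPM in E14.5 bladder, 64.6, 50.4 and 34 CPM in E14.5 urethral, 19.2, 17.9 and 23.4 CPM in E18.5 bladder and 54.1, 43.1 and 53.2 CPM in E18.5 urethral mesenchyme. Exons of Tssc4 on the opposite strand cover 3.44% of its exonic bases. The compartments overlapped at E14.5 and did not at E18.5, where the E18.5 bladder libraries were below all others.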
